A study of Daphnia magna with 20 samples.

Results

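The transcriptome of unexposed whole water fleas (Daphnia magna) was described from the 5 vehicle control libraries (control 1 to control 5) among the 20 RNA libraries of a chronic exposure study. The members were chosen by their label alone, and no value of the 15 exposed libraries entered any result. The study set 3 exposures (an ethylene acrylic acid copolymer at either of 2 particle concentrations, and fumed silica) against this vehicle control, with 5 libraries in each of the 4 groups. Control animals carried no particle exposure and went through the same 21-day static-renewal test as the others, in 15 vessels of about 90 ml with 1 daphnid each, at 20 ± 1 °C and 16 h of light to 8 h of dark, on green algae and a yeast-based food at about 0.2 mg of carbon per daphnid and day. RNA came from pools of whole daphnids, and the labels do not say how many animals made up a pool. The stage label gives neonates of less than 24 h, but the exposure lasted until day 21, and the age at RNA sampling is therefore not settled. No label states that the 5 samples came from separate cultures, so the spread between them may be partly technical.

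Daphnia females reproduce mostly without males, and carry a brood of eggs through each adult moult cycle. The cycle joins hormone pulses of ecdysteroids, shedding and rebuilding of a chitin and protein cuticle, and the loading of new eggs with yolk made from vitellogenin. Hemoglobin circulates freely in the hemolymph, the gut secretes proteases and carbohydrases that digest algae, and a large compound eye expresses many opsins. Published work has described a Daphnia magna vitellogenin that carries a domain resembling a copper-zinc superoxide dismutase, an enzyme type that removes superoxide radicals.

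The table held estimated counts for 7784 names, which are protein descriptions rather than gene symbols, and 1432 of them carried an added gene tag such as arp2_g3069. Library totals were 17316728, 24371537, 26562258, 25655374 and 11918440 counts in control 1 to control 5. Levels are given as CPM, the value divided by the library total and multiplied by 1000000, so they are shares of counts and are not corrected for transcript length. Each value belongs to a name rather than to a known gene, because genes with the same description may be merged under it or split reads between near-identical copies. With only 1 group, no groups were compared: every value below is a description, given per library or as mean ± SD with n = 5. A floor of 3 counts corresponds to between 0.113 and 0.252 CPM, depending on the library, and covers counting error only.

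Control 4 and 5 stood apart from the other 3 libraries along the main axis of spread, and this bears on the means below to differing degrees. Leaving both out moved 24 of 153 named levels by more than 1.5 times. Principal component 1, computed on log2 CPM, carried 61.0% of the variance and placed control 1, 2 and 3 at 35.3, 12.5 and 25.8 and control 4 and 5 at −34.8 and −38.8. Components 2, 3 and 4 carried 16.5%, 12.6% and 9.835%. Of 7037 names entered, the 100 with the strongest loadings toward control 1, 2 and 3 included 18 of the 44 cuticle names and 12 of the 37 collagen and basement membrane names. Another 44 were in none of the lists described below. The 100 names at the other end included 72 in none of these lists, 11 with no informative description and 4 cuticle names. The lists of sarcomere and muscle, cytochrome P450, secreted digestive proteases, and homeobox, Notch and Wnt names had 2 each. The closest pair of libraries was control 4 and 5, whose median absolute log2 difference per name was 0.17, and the most distant was control 1 and 5, at 0.38. Control 2 was about as far from control 4 (0.239) as from control 3 (0.237), with 0.227 from control 1 and 0.258 from control 5. The split was therefore not a clean one for control 2. No pair shared an identical value above 0, and a chi-square of the counts per degree of freedom between 61.6 and 464 put all 10 pairs beyond sampling noise, so none was treated as 1 library deposited more than once.

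Of the 7784 names, 7238 were above 0 in all 5 libraries and 152 were at 0 in all of them. The number of names above 0 ran from 7389 in control 5 to 7485 in control 2. Evened out to the smallest total, the expected number was 7348 to 7415, so the libraries differed little in how many names they detected. A mean of at least 1 CPM was reached by 7036 names, of at least 10 CPM by 5780, of at least 100 CPM by 1516 and of at least 1000 CPM by 123, while 4 names averaged over 1% of the counts. Names with the gene tag took 4.42% ± 0.201 of the counts (SD, n = 5) although they made up 1432 of the 7784, and 121 of them were at 0 in every library. The 368 names with no informative description took 6.32% ± 0.694.

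Markers of every tissue looked for were detected, although 1 name each of the muscle, blood and fat cell, and nervous system lists was at 0 in all 5 libraries. The summed level of the marker names ran from 16332 to 26952 CPM over the 5 libraries for muscle (13 names), from 3939 to 8847 CPM for the eye (22 names), and from 17668 to 27428 CPM for the midgut (56 names). It was 6587 to 11332 CPM for the epidermis (41 names), 26341 to 82171 CPM for ovary and yolk (6 names), and 5253 to 8166 CPM for blood and fat cells (28 names). Vitellogenin-1 precursor alone had 25141 to 79641 CPM, so the ovary and yolk sum was mostly 1 yolk name and not a level of the ovary. The nervous system (30 names) took 2300 to 3417 CPM and dividing cells (11 names) 519 to 816.5 CPM. The largest of these 30 nervous system marker names was neurexin iv, at 634 to 1636 CPM, which in Drosophila is a protein of septate junctions. That sum is therefore not a level of neurons alone. In whole-animal RNA, fewer cells of a type and less RNA per cell cannot be told apart.

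The 3 most abundant names took 19.8% ± 3.22 of all counts (SD, n = 5), and each of them led at least 1 library. The name copper-zinc cu-zn superoxide dismutase. stood at 164028, 122211, 96906, 58996 and 43697 CPM in control 1 to 5, the widest span in CPM of any name. This is 16.4%, 12.2%, 9.69%, 5.90% and 4.37% of a library, with a mean of 9.72% ± 4.85. It ranked first in control 1, 2 and 3, second in control 4 and in position 3 in control 5, and without control 4 and 5 its mean was 12.8% ± 3.39 (n = 3).

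Vitellogenin-1 precursor, the precursor of the main yolk protein, had 25141, 51950, 33274, 79641 and 54062 CPM in control 1 to 5 (48814 ± 21152 CPM). It was the most abundant name in control 4 and ranked 3 in control 1, and 3.17 times as high in control 4 as in control 1. The superoxide dismutase name had 6.52, 2.35, 2.91, 0.741 and 0.808 times the vitellogenin-1 level in control 1 to 5. Both names together took 18.9%, 17.4%, 13.02%, 13.9% and 9.78% of the counts. Whether the abundant superoxide dismutase name stands for the vitellogenin with that domain is not settled by the name, and the table gives no sequence for either.

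A name described only as conserved protein was the second most abundant by mean, with 49154, 42550, 60117, 51808 and 54969 CPM (51719 ± 6552 CPM). It led in control 5. Its coefficient of variation (CV, the SD as a percentage of the mean) was 12.7%, against 49.9% for the superoxide dismutase name and 43.3% for vitellogenin-1 precursor. The description conserved protein is shared by 260 names with and without tags, and this untagged name held 87.55% of their summed level, so it may join several genes.

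**Figure D1:**
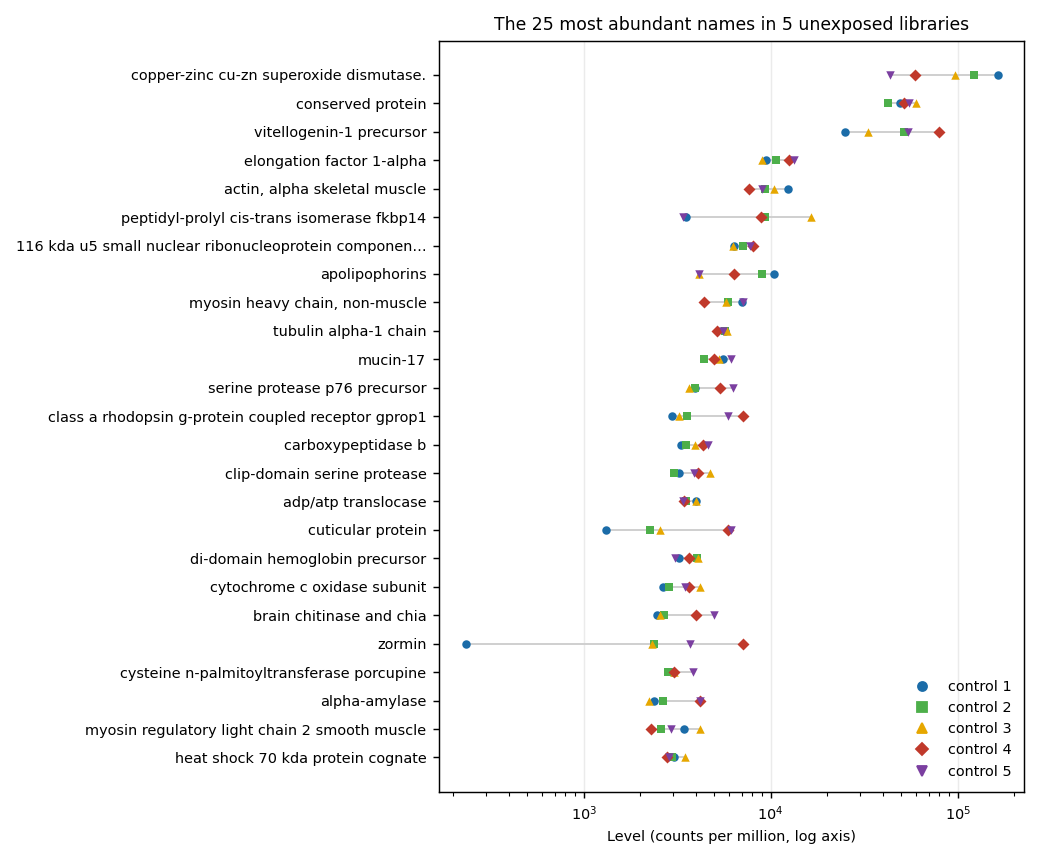
Level of the 25 most abundant names in CPM (log axis), ordered by mean from top to bottom, with 1 point per unexposed library and a grey line from the lowest to the highest. The upper 3 names lie far above the rest, from 25141 to 164028 CPM, and zormin spans from 234 CPM in control 1 to 7153 CPM in control 4 while tubulin alpha-1 chain stays between 5183 and 5850 CPM.

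Counts were concentrated in few names, and more so in some libraries than in others. The 10 names with the highest mean took 29.3%, 27.4%, 24.8%, 24.4% and 20.3% of the counts in control 1 to 5, and the 100 highest took 43.8% ± 1.57. Taking names from the top in each library, 50% of the counts was reached with 141, 154, 167, 150 and 184 names and 90% with 2415 to 2546 names. The spread of counts over names, as the exponential of the Shannon entropy, equalled 669 evenly used names in control 1 and 1050 in control 5. With the superoxide dismutase name taken out of the total, the next 9 names held 15.45% to 19.6%, and control 1 then held the lowest share and control 4 the highest.

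**Figure D2:**
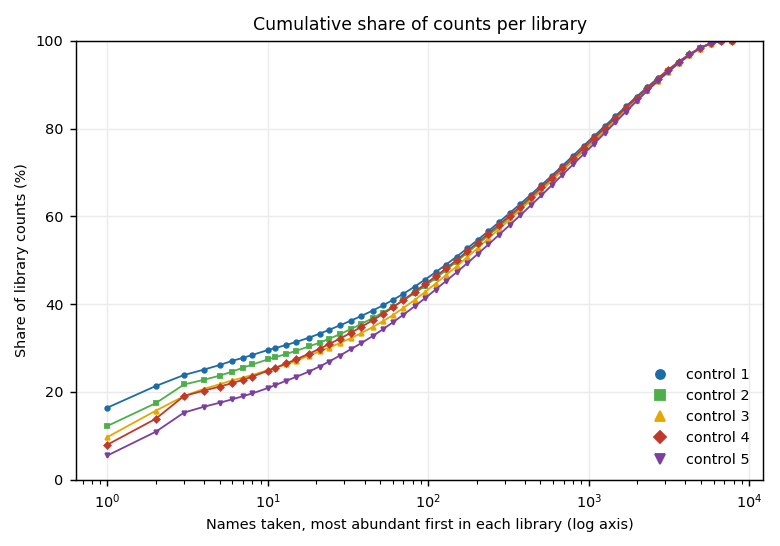
Cumulative share of library counts (%) against the number of names taken from the most abundant downward (log axis), with 1 line per unexposed library. Control 1 lies highest and control 5 lowest over the steep part of the curves, and the lines meet toward the right, where 2415 to 2546 names hold 90% of the counts.

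Below the leading 3, the abundant names included those of translation, muscle, cytoskeleton, protein folding, splicing, lipid transport, digestion, vision and oxygen transport. Elongation factor 1-alpha, which brings aminoacyl-tRNA to the ribosome, averaged 11012 ± 1905 CPM and was the only other name with a mean above 1% of the counts (1.10%). Actin, alpha skeletal muscle averaged 9780 ± 1775 CPM, and tubulin alpha-1 chain, a microtubule subunit, 5591 ± 252 CPM with a CV of 4.51%. Myosin heavy chain, non-muscle averaged 6059 ± 1123 CPM. The 116 kda u5 small nuclear ribonucleoprotein component protein, a GTPase of the spliceosome, averaged 7146 ± 809 CPM and ranked between 6 and 8 in every library.

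Other names of similar level varied far more. The name peptidyl-prolyl cis-trans isomerase fkbp14, which in mammals helps fold proteins in the endoplasmic reticulum, had 3534, 9339, 16468, 8846 and 3386 CPM in control 1 to 5. Control 3 was the highest, and control 1 and 5, which lie at opposite ends of component 1, were the lowest. Apolipophorins, the lipid carriers of the hemolymph in insects, had 10370, 8986, 4157, 6339 and 4142 CPM, highest in control 1 and lowest in control 3 and 5. Zormin, a protein of the muscle Z-disc in Drosophila, had 234, 2389, 2314, 7153 and 3724 CPM, ranking 8 in control 4 and 630 in control 1, and its mean of 3163 CPM was 1646 CPM without control 4 and 5. A tagged zormin name followed at 7.01, 47.9, 47.2, 148 and 93.0 CPM, also lowest in control 1 and highest in control 4.

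Cysteine n-palmitoyltransferase porcupine, the enzyme that attaches a lipid to Wnt proteins, stood among the 25 at 2978, 2841, 3046, 3036 and 3827 CPM. ADP/ATP translocase, which exchanges nucleotides across the inner mitochondrial membrane, averaged 3679 ± 297 CPM, and heat shock 70 kda protein cognate, a constitutive chaperone, 3029 ± 266 CPM. Both had CVs below 9% (8.065% and 8.79%).

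The 36 lists of names by function that follow do not overlap and hold 1110 of the 7784 names, and another list holds the 368 names with no informative description. All are described by their summed CPM. Among the lists by function, superoxide dismutases led at 97600 ± 48556 CPM, and 1 name held 99.6% of the list. Cytosolic ribosomal proteins took 80397 ± 9031 CPM over 105 names, vitellogenin and vitelline names 50272 ± 21546 CPM over 4, and sarcomere and muscle names 25245 ± 2636 CPM over 27. Homeobox, Notch and Wnt names, 65 regulators of development, together took 811 ± 75.4 CPM.

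**Figure D3:**
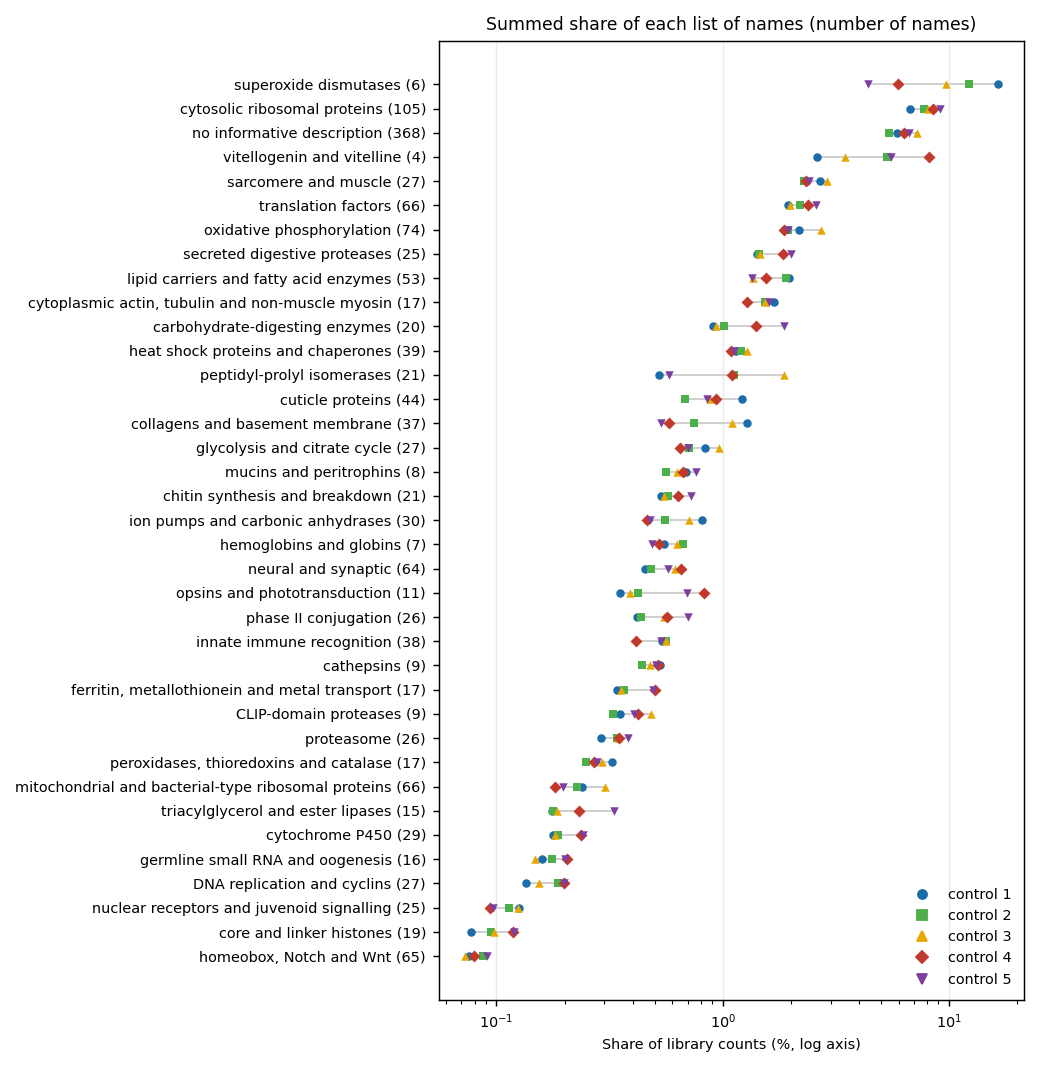
Summed share of library counts (%, log axis) of each of 36 lists by function and 1 list of names with no informative description, with the number of names in brackets, ordered by mean from top to bottom and with 1 point per unexposed library. The lists run from superoxide dismutases (4.41% to 16.5%) to homeobox, Notch and Wnt (0.0729% to 0.0907%), and opsins, collagens and peptidyl-prolyl isomerases spread widely beside chaperones and cathepsins.

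Of the 4 yolk and egg names, 3 were highest in control 4 and lowest in control 1, against 15.1% and 35.1% of all 7036 names. The tagged second vitellogenin-1 precursor had 723, 1138, 1127, 1803 and 1331 CPM, lowest in control 1 and highest in control 4 like the abundant name. Vitelline membrane outer layer protein, named for a layer of the egg coat, had 48.4, 51.9, 58.4, 125 and 85.8 CPM, and was also highest in control 4 and lowest in control 1. Vitelline membrane outer layer protein 1 was level at 160 ± 13.6 CPM. Of the 4 names, 3 differed by more than 2-fold between the highest and the lowest library, against 23.1% of all 7036 names.

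Names of germline small RNA and oogenesis, among them Piwi and Tudor proteins that hold transposons in check, summed to 1590, 1753, 1477, 2055 and 2017 CPM over 16 names. Argonaute-2, the effector of small interfering RNA, averaged 387 ± 59.2 CPM and held 21.8% of the list, so the sum is not one of germline names alone. Piwi protein 2 had 275, 318, 287, 459 and 471 CPM. Names of DNA replication and cyclins summed to 1347, 1874, 1547, 1985 and 1995 CPM over 27 names, lowest in control 1. The proliferating cell nuclear antigen, the sliding clamp of DNA polymerase, had 49.7, 69.4, 87.05, 107 and 148 CPM. G2/mitotic-specific cyclin-b1, which drives entry into mitosis, did not follow it, with 313, 516, 265, 423 and 278 CPM.

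Names of oxygen transport and of defence against oxidation ranged from steady to variable. Di-domain hemoglobin precursor, the 2-domain oxygen carrier of Daphnia hemolymph, had 3253, 4047, 4109, 3657 and 3096 CPM, a CV of 12.6% (12.55%). It held 63.5% of the globin list. In that list, 2 of the 6 names of at least 1 CPM differed by more than 2-fold, against 23.1% of all 7036 names. The tagged di-domain hemoglobin precursor had 628, 844, 481, 422 and 473 CPM, cytoglobin 729 ± 76.7 CPM, and globin/arp2_g2285 684, 926, 833, 344 and 535 CPM. None of the other 5 superoxide dismutase names came near the leading one: superoxide dismutase averaged 249 ± 91.6 CPM (248.5 before rounding), the mitochondrial manganese form 60.6 ± 12.5 CPM, and the rest 12.4 to 59.4 CPM. Copper-zinc superoxide dismutase, an untagged name of its own, had 26.0, 43.5, 42.7, 78.7 and 67.7 CPM, and so was lowest in control 1, where the abundant name was highest. Glutathione peroxidase 6, which removes hydrogen peroxide, averaged 907 ± 99.2 CPM, and none of the 15 names of at least 1 CPM in the list of peroxidases, thioredoxins and catalase differed by more than 2-fold between libraries, against 23.1% of all 7036 names.

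Cuticle proteins were the list with the widest spread. Of 40 cuticle names with at least 1 CPM, 38 (95%) differed by more than 2-fold between the highest and the lowest library and 24 by more than 10-fold, against 23.1% and 2.56% of all 7036 names, with values under the floor set to it. Their median CV was 86.7%, against 17.55% over all names. The list was highest in control 1 for 23 of the 40 names and lowest in control 5 for 20, against 12.3% and 12.5% of all 7036 names. The sum hid this, with 12192, 6839, 8774, 9360 and 8569 CPM in control 1 to 5, because the most abundant member ran the other way.

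That member, cuticular protein, had 1316, 2257, 2570, 5892 and 6162 CPM, and cuticular protein precursor had 198, 297, 246, 1003 and 1287 CPM. Both were highest in control 4 and 5 (without these, the means were 2048 and 247 CPM in place of 3639 and 606 CPM). Cuticle protein had 3371, 1019, 1746, 387 and 130 CPM and pupal cuticle protein 1151, 557, 617, 339 and 80.1 CPM, both highest in control 1 and lowest in control 5. The steepest was cuticle protein/arp2_g3069, with 1419, 364, 154, 1.095 and 1.35 CPM. Pro-resilin, the precursor of an elastic cuticle protein, had 267, 147, 102, 3.21 and 2.95 CPM. Cuticular protein 27 precursor followed neither pattern, with 0.9199, 126, 166, 422 and 28.8 CPM.

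Many collagens were likewise highest in control 1 or 3 and lowest in control 4 or 5, while the 4 laminins and 2 fibrillins of at least 1 CPM had CVs between 4.11% (laminin subunit alpha-3) and 18.1% (laminin alpha-2 chain precursor), against a median of 17.55% over all names. The 37 names summed to 12821, 7455, 11037, 5767 and 5346 CPM, highest in control 1 for 18 and in control 3 for 11 of the 33 names of at least 1 CPM. Control 4 was the lowest for 14 of them and control 5 for 15. Over all 7036 names, control 1 was the highest for 12.3% and control 3 for 23.7%, and control 4 was the lowest for 21.9% and control 5 for 12.5%. Collagen alpha-1v chain had 359, 83.7, 342.5, 0.601 and 1.375 CPM, collagen alpha-5(vi) chain/sw 918, 93.8, 296, 1.235 and 3.09 CPM, and collagen alpha-1(x) chain 330, 41.2, 259, 0 and 0.702 CPM, where 0 allows up to 0.117 CPM. By comparison, laminin subunit alpha-3, a basement membrane glycoprotein, stayed between 324 and 354 CPM (339 ± 13.9), collagen alpha-1(iv) chain, a network collagen, between 715 and 946 CPM, and fibrillin-2, of the elastic microfibrils, between 73.4 and 91.0 CPM.

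A pair of collagen names differed from both. Collagen alpha-1(xxi) chain/sw had 1435, 189, 846, 140 and 596 CPM and collagen alpha-6(vi) chain/sw 1384, 168, 778, 96.3 and 495 CPM, so that control 2 and 4 were low together and control 5 was intermediate. Collagen alpha-2 precursor was high in control 3 alone, at 12.1, 8.36, 197, 2.945 and 7.38 CPM.

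Hormonal and moult timing names included both very wide and very narrow ranges. The ecdysis triggering hormone receptor, which in insects starts the behaviour that sheds the old cuticle, had 1522, 8.915, 1378, 1.16 and 8.005 CPM in control 1 to 5. It was therefore over 1000 CPM in control 1 and 3 and under 10 CPM in the rest, control 2 included. Chitinase 5 precursor, a chitinase that in insects digests old cuticle, had 376, 168, 56.9, 16.4 and 0.746 CPM. Hormone receptor hr3, a nuclear receptor that ecdysteroids induce in insects, had 62.2, 57.9, 99.4, 7.78 and 7.23 CPM, and its tagged copy 6.73, 9.89, 21.3, 4.001 and 2.82 CPM.

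Some other names of the moult cycle varied little. Chitin synthase variant, the enzyme that builds chitin, stayed between 326 and 423 CPM, and nuclear hormone receptor ftz-f1 beta between 38.3 and 55.6 CPM. Retinoid x receptor, the partner of the ecdysone receptor, stood at 180.5, 178, 190, 180 and 182.5 CPM, among the 12 lowest CVs of the informative names of at least 10 CPM. Of the enzymes that make ecdysteroids, cytochrome p450 306a1 had 128, 138, 134, 208 and 208 CPM and cytochrome p450 302a1 5.25, 7.30, 9.01, 18.98 and 18.6 CPM, both highest in control 4 and 5. Cytochrome p450 307a1 did not share that pattern, with 17.9, 28, 16.98, 11.4 and 10.6 CPM. Nor did cytochrome p450 315a1, which was highest in control 4 but next in control 2, with 6.58, 12.1, 9.855, 12.9 and 11.7 CPM. Of 17 such names with at least 1 CPM, 11 differed by more than 2-fold and 3 by more than 10-fold, against 23.1% and 2.56% of all 7036 names. This list was drawn up after the values had been seen.

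**Figure D4:**
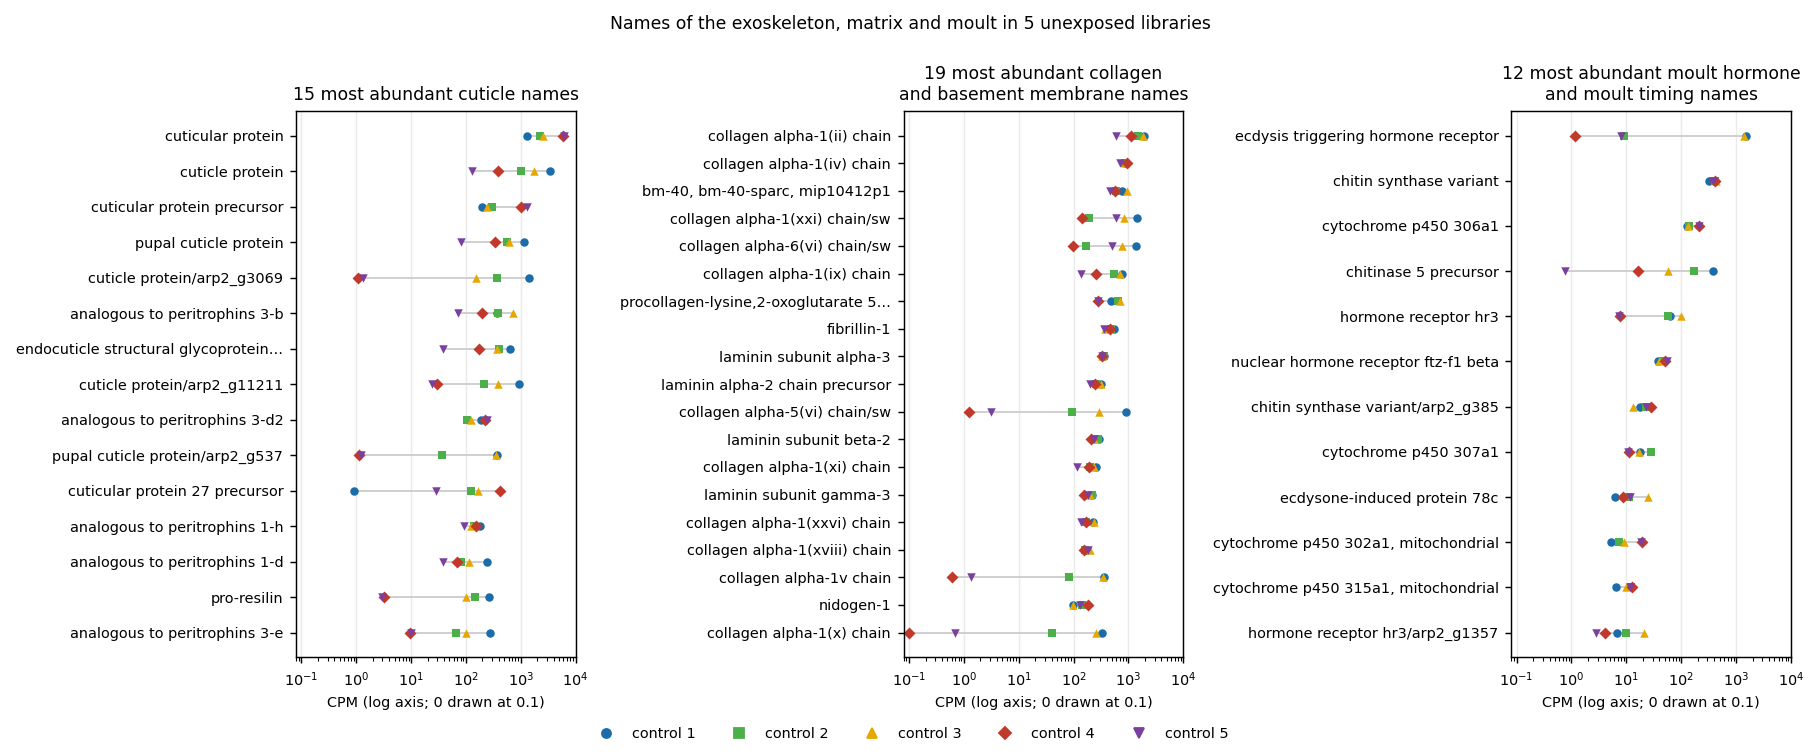
Level in CPM (log axis) of the most abundant cuticle names (left; the phrase cuticular protein is left out before analogous to peritrophins), collagen and basement membrane names (middle) and moult hormone and timing names (right), with 1 point per unexposed library. Control 4 and 5 lie far to the left for names such as cuticle protein/arp2_g3069 (1.095 and 1.35 CPM) and collagen alpha-1v chain (0.601 and 1.375 CPM), while laminin subunit alpha-3 (324 to 354 CPM) and chitin synthase variant (326 to 423 CPM) show nearly coincident points.

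Chitin turnover was led by brain chitinase and chia, a chitinase description, at 2464, 2682, 2569, 3970 and 4957 CPM. Chitin deacetylase 1 precursor, an enzyme that modifies cuticle chitin in insects, ran the other way with 1070, 1168, 1326, 540 and 415 CPM. Chitin deacetylase 3 precursor was likewise highest in control 3 and lowest in control 5, with 132, 127, 178, 40.9 and 13.1 CPM. The sum of the list was level, at 6050 ± 775 CPM, and brain chitinase and chia held 55.0% of it. Of 19 names of at least 1 CPM, 10 (52.6%) differed by more than 2-fold, against 23.1% of all 7036 names.

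Gut enzymes were abundant, and most carbohydrases were highest in control 5. Secreted digestive proteases summed to 14148, 14498, 14614, 18556 and 20141 CPM over 25 names, and control 4 was the highest for 4 and control 5 for 9 of the 21 names of at least 1 CPM. Serine protease p76 precursor, the largest of them, had 3963, 3931, 3646, 5397 and 6326 CPM, carboxypeptidase b, which trims amino acids from the end of a peptide, averaged 3957 ± 560 CPM, and chymotrypsin elastase family member 2a 2722 ± 697 CPM. Carbohydrate-digesting enzymes summed to 9072, 10103, 9312, 13998 and 18607 CPM over 20 names, and control 5 was the highest for 13 of the 18 names of at least 1 CPM. Over all names of at least 1 CPM, control 4 was the highest for 15.1% and control 5 for 34.3%.

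Among these carbohydrases, alpha-amylase, which splits starch, had 2372, 2645, 2232, 4178 and 4185 CPM, and endoglucanase e-4 precursor, which splits cellulose, had 1364, 1732, 1370, 2016 and 3949 CPM. Pancreatic triacylglycerol lipase, a fat-splitting enzyme, had 499, 539, 605, 925 and 1343 CPM. Cathepsins, proteases of the lysosome and in arthropods also of the gut, did not share the pattern in their sum. It was 4951 ± 367 CPM over 9 names, with a CV of 7.41%, but the median CV of the members was 21.8%. Cathepsin-l cysteine peptidase, the largest, had 2129, 1830, 1794, 2333 and 2341 CPM, and cathepsin l 1590, 1005, 1359, 991 and 931 CPM. Of 8 names of at least 1 CPM, 3 were highest and 4 lowest in control 5, against 34.3% and 12.5% of all names. Mucin-17, a mucus-type surface protein, averaged 5292 ± 666 CPM and held 79.9% (79.95%) of the list of mucins and peritrophins.

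Most vision names were highest in control 4. The 11 opsin and phototransduction names summed to 3530, 4218, 3884, 8257 and 6961 CPM, and 7 of the 9 names of at least 1 CPM were highest in control 4 and the other 2 in control 5, against 15.1% and 34.3% of all 7036 names. Class a rhodopsin g-protein coupled receptor gprop1, an opsin-type receptor, had 2976, 3590, 3254, 7101 and 5930 CPM and held 85.1% of the list. Class a rhodopsin g-protein coupled receptor gprop2 had 66.6, 71.1, 82.1, 142 and 122 CPM. The arrestins, which switch opsins off, were also highest in control 4 and next in control 5, phosrestin ii arrestin a arrestin with 127, 140, 156, 277.5 and 247 CPM and phosrestin i arrestin b arrestin with 114, 121, 105, 235 and 194 CPM. Without control 4 and 5 the list averaged 3877 CPM in place of 5370 CPM.

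Muscle names were of 2 kinds. Thick and thin filament names were highest in control 1 or 3 and mostly lowest in control 4 (17 of the 21 names of at least 1 CPM, against 21.9% of all names): troponin t, fast skeletal muscle, which links calcium to contraction, had 1649, 1243, 1818, 868 and 1169 CPM, and paramyosin, long form, a core of invertebrate thick filaments, 1879, 1491, 2161, 1141 and 1554 CPM. Both zormin names were the exception, being highest in control 4. Muscle m-line assembly protein unc-89, a giant protein of the sarcomere centre, stayed between 249 and 326 CPM (248.6 to 325.9).

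Cytosolic ribosomal and mitochondrial names had their highest and lowest values in different libraries. Of 90 cytosolic ribosomal proteins with at least 1 CPM, 85 (94.4%) were lowest in control 1 and 68 (75.6%) highest in control 5, against 35.1% and 34.3% of all 7036 names. Their sum was 67009, 77670, 80778, 85462 and 91064 CPM. With the superoxide dismutase name left out of every total, 77 of 90 were still lowest in control 1 and 51 highest in control 5, against 21.8% and 24.6% of all names. With totals scaled by TMM (edgeR's trimmed mean of M-values), 80 were lowest in control 1, but only 27 highest in control 5 and 38 in control 4. Both settings were added after the data had been seen. Among the members, 40s ribosomal protein s8 averaged 2650 ± 257 CPM and 60s acidic ribosomal protein p0 had 1895, 2465, 2535, 3019 and 3273 CPM.

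Mitochondrial and bacterial-type ribosomal proteins were highest in control 3 instead, for 59 of 64 names of at least 1 CPM, and lowest in control 4 for 53. The 64 names of oxidative phosphorylation, the respiratory chain and ATP synthase, did likewise, 57 being highest in control 3 and 46 lowest in control 4. Over all names of at least 1 CPM, control 3 was the highest for 23.7% and control 4 the lowest for 21.9%. The respiratory sum was 21815, 19491, 27343, 18746 and 19429 CPM, and atp synthase subunit beta, mitochondrial had 2788, 2212, 3084, 1984 and 2030 CPM. In the list of glycolysis and citrate cycle, 18 of 23 names were also highest in control 3, with fructose-bisphosphate aldolase b at 1652, 1328, 1824, 1103 and 1340 CPM. Control 3 kept 58 of 64, 56 of 64 and 17 of 23 as its share of highest values under TMM scaling, while the lowest in control 4 came to 37 of 64 and 32 of 64 for the first 2 lists.

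Chaperone, P450 and conjugating enzyme lists were detected in each library without exposure. Heat shock proteins and chaperones summed to 11665 ± 751 CPM over 39 names, a CV of 6.44%, and heat shock protein hsp 90-alpha, a chaperone of signalling proteins, averaged 1203 ± 60.6 CPM. The 29 cytochrome P450 names, oxidases of steroids and foreign compounds, summed to 1778, 1871, 1818, 2363 and 2417 CPM, led by cytochrome p450 at 552 ± 114 CPM, cytochrome p450 3a40 at 421 ± 95.0 CPM and cytochrome p450 305a1 at 416 ± 35.2 CPM. Conjugating enzymes summed to 5345 ± 1139 CPM over 26 names, and sulfotransferase sult, which adds sulphate to hormones and foreign compounds, held 45.9% of it at 1596, 1698, 2260, 2707 and 4004 CPM. Ferritin, heavy subunit, the iron store, had 1687, 1692, 1673, 2431 and 2470 CPM.

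Immune recognition names summed to 5369, 5638, 5610, 4149 and 5360 CPM over 38 names. Gram-negative bacteria-binding protein, a sensor of microbial wall sugars in arthropods, had 1362, 1441, 1262, 1322 and 2437 CPM, so that control 5 was high alone. C-type lectin ctl - galactose binding., a sugar-binding protein, had 952, 1126, 781 (780.5), 268 and 116 CPM, and its near namesake without the final stop 521, 755, 774, 173 and 86.5 CPM, both low in control 4 and 5. Toll, the receptor of the insect immune pathway of that name, stayed between 64.9 and 87.4 CPM.

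Ion transport and nervous system names did not share a common pattern. Sodium/potassium-transporting atpase alpha-3 chain protein, a subunit of the pump that sets sodium gradients, had 2695, 1338, 1495, 1063 and 1174 CPM, and the list of ion pumps and carbonic anhydrases summed to 8066, 5553, 7088, 4622 and 4787 CPM. The 64 neural and synaptic names summed to 4556, 4824, 6154, 6556 and 5760 CPM. The largest of them, tribolium castaneum nicotinic acetylcholine receptor subunit alpha10, had 1237, 1786, 1621, 2714 and 2049 CPM. Neurexin iv, a protein of septate junctions in Drosophila, had 634, 933, 806, 1636 and 1484 CPM. A tagged dopamine beta hydroxylase name, in vertebrates the enzyme that makes noradrenaline, had 918, 521, 1914, 557 and 542.5 CPM, high in control 3.

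The spread of a typical name between unexposed libraries was moderate. The median CV over the 7036 names of at least 1 CPM was 17.55%, against 3.78% that counting error alone would give at the median. It was 29.1% for names of 1 to 10 CPM and 16.0%, 15.6% and 16.8% for names of 10 to 100, 100 to 1000 and over 1000 CPM, so that it depended little on level above 10 CPM. In all, 513 names (7.29%) had a CV above 50%, 1623 (23.1%) differed by more than 2-fold between the highest and the lowest library, and 180 (2.56%) by more than 10-fold. The common biological coefficient of variation from edgeR was 30.5% (30.55%). Without control 4 and 5, the median CV was 13.75%, the biological coefficient of variation 24.0%, and 337 names had a CV above 50%. Across names, which are not independent replicates, Pearson's r of log2 CPM between pairs of libraries ran from 0.911 to 0.977.

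**Figure D5:**
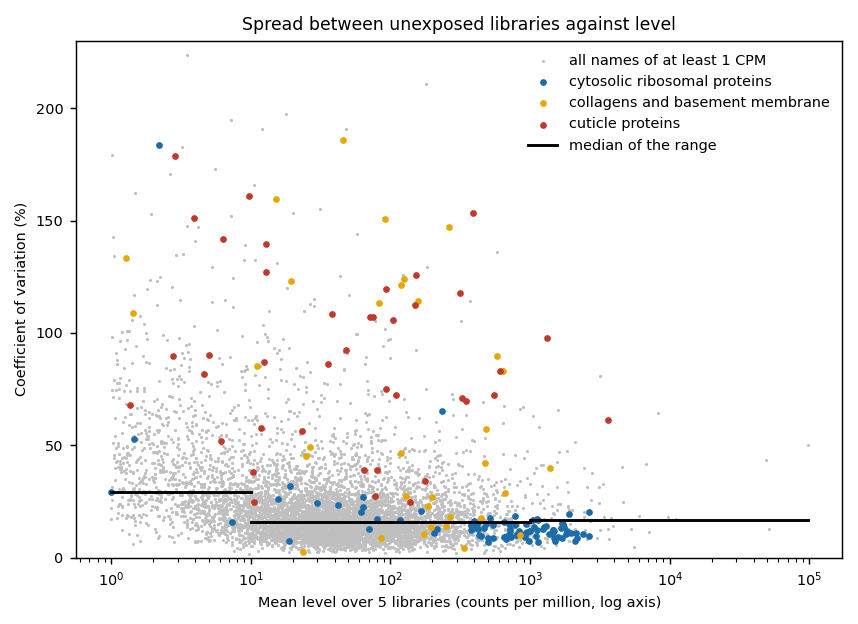
Coefficient of variation over the 5 unexposed libraries (%) against mean level in CPM (log axis) for 7036 names, with cuticle, collagen and cytosolic ribosomal names coloured and the median of each range of level as a black line. Most cuticle names (median 86.7%) lie far above the median line of 15.6% to 29.1%, collagens are split between high and low (median 46.6%), and most ribosomal names lie low (median 12.5%).

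The steadiest and the most variable named transcripts were of different kinds. Among names of at least 10 CPM with an informative description, the lowest CVs were 2.09% for polypeptide n-acetylgalactosaminyltransferase, which starts O-linked sugar chains (287 to 303 CPM), 2.15% for transmembrane 9 superfamily member (454 to 480 CPM), and 2.21% for the small GTPase ras-related protein r-ras2 (88.8 to 93.9 CPM). Type ii collagen was also among the 12 lowest, at 23.0 to 24.4 CPM, and so was the clathrin adaptor ap-2 complex subunit mu-a, at 110 to 117 CPM (109.7 to 116.9). Of the names often used to normalise PCR in Daphnia and other arthropods, a list drawn up after the values had been seen, glyceraldehyde-3-phosphate dehydrogenase stayed between 1202 and 1454 CPM and tata box binding protein-related factor between 37.2 and 46.8 CPM. Actin-87e varied most of them, with 579, 282, 255, 133 and 155 CPM. It was 1 of 11 such names to differ by more than 2-fold, against 23.1% of all 7036 names. Phosphoglycerate kinase had 280, 225.5, 343, 203 and 183 CPM, a CV of 26.25%, also above the median of 17.55% over all names.

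At the other end, the 12 highest CVs belonged in most cases to 1 high library. Aspartyl beta-hydroxylase variant, an enzyme that modifies aspartate in secreted proteins, had 19.2, 863, 5.59, 10.9 and 6.62 CPM (CV 211%), and mitochondrial atp synthase b chain 18.99, 212.5, 2.93, 6.08 and 1.06 CPM, both high in control 2. Dual oxidase maturation factor 1 gamma, a partner of a hydrogen peroxide-producing oxidase, was also high there, at 20.1, 117, 5.53, 5.67 and 7.55 CPM. In control 3, gliomedin reached 53.4 CPM (53.45), with 0.0442 to 3.71 CPM elsewhere, and collagen alpha-2(ix) chain 58.1 CPM, with 0.893 to 10.8 CPM elsewhere. Carbonic anhydrase 2, ld26647p, which converts carbon dioxide to bicarbonate, had 74.7, 14, 4.18, 3.81 and 3.84 CPM, high in control 1. These means rest on 1 library each: without it, aspartyl beta-hydroxylase variant averaged 10.6 CPM in place of 181 CPM, mitochondrial atp synthase b chain 7.27 CPM in place of 48.3 CPM, collagen alpha-2 precursor 7.70 CPM in place of 45.5 CPM, and carbonic anhydrase 2 6.46 CPM in place of 20.1 CPM.

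Names at 0 in some libraries were rarely abundant in another. Of the 394 names at 0 in some but not all libraries, 11 reached 10 CPM or more in another, and collagen alpha-1(x) chain was the highest. Nuclear receptor subfamily 1 group d member 2, a repressor of the vertebrate clock, had 6.72, 7.73, 18.3, 0 and 0 CPM. Phosphatidylinositol transfer protein sec14 had 28.8, 8.22, 7.04, 0.360 and 0 CPM, and neural lazarillo, a lipocalin, 8.76, 5.94, 22.8, 0.0546 and 0 CPM. A tagged skeletor name, a spindle matrix protein in Drosophila, was listed only in control 3, at 17.5 CPM. In control 4 and 5 a value of 0 allows up to 0.117 and 0.252 CPM.

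Transcripts described as transposable elements were present at a low summed level, in a list drawn up after the values had been seen. The 30 names summed to 678, 848, 658, 892 and 852 CPM (786 ± 109). A polyprotein of retroviral origin led with 223, 328, 154, 290 and 159 CPM, and a pol polyprotein from transposon tnt 1-94 with a gene tag stayed between 58.4 and 66.2 CPM.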

How the data were processed

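Whole-daphnid RNA was enriched for poly-A transcripts and made into stranded libraries from 125 ng of total RNA, in sequencing pools of 8 libraries, per the labels' protocols. Salmon 0.12.0 and R 3.4.3 are listed in the submitters' processing notes. Details of the transcript reference and of how transcripts were gathered under names were not given in the sources used here. Estimated counts fill the authors' deposited table, which is called normalized but has unequal column totals, so values were read as counts not scaled to a common depth. Only the 5 control columns were used, and 0 columns were without a sample. CPM were computed as value over column sum times 1000000 in Python 3.11.15 (numpy 2.4.6, pandas 2.3.3, scipy 1.17.1, matplotlib 3.10.9). Values were rounded for edgeR 4.0.16 in R 4.3.3, which gave TMM factors and the biological coefficient of variation from an intercept-only model, tested on simulated data. DESeq2 1.42.0 size factors were an alternative. For principal components, a prior count of 2 was added before taking log2 CPM. Names need a mean of at least 1 CPM to enter spread measures.

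Named by rule were the 25 names with the highest mean, the 3 highest of each list (all members of lists of 6 or fewer), the 12 highest and 12 lowest CVs among informative names of at least 10 CPM, up to 8 names at 0 in a library and at 10 CPM or more in another, and the vitellogenin, hemoglobin, opsin and doublesex names of at least 10 CPM. Doublesex- and mab-3-related transcription factor 3, of that last kind, averaged 26.9 CPM (26.95 ± 6.64). Other members of lists were named after their values were seen. The libraries, lists and rules were chosen with earlier results of these data known. Totals of 11918440 to 26562258 counts set the precision, and floors cover counting error only. No transcript lengths, sequences or positions were used here.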

Additional observations from a re-analysis of the deposited data

Results flagged for a closer look

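Of 196 results examined, 24 had a library set apart from the other 4 by more than 0.71 of the whole range of the 5 libraries. This limit is the critical value of Dixon's outlier test for 5 values. Chance flags about 1 in 20 such groups if their values are normally distributed, which was not checked. The names with the highest CV were also chosen for their spread, so these flags are partly built in. They fell in control 1 (8), control 2 (4), control 3 (8), control 4 (1) and control 5 (3).

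Control 1 was set apart as the highest for sodium/potassium-transporting atpase alpha-3 chain protein (2695 CPM, with 1063 to 1495 CPM elsewhere), cuticle protein/arp2_g3069 (1419 CPM, with 1.095 to 364 CPM elsewhere), clip-domain serine protease subfamily d (217 CPM), pollen-specific leucine-rich repeat extensin protein 1 (201 CPM, 200.8 before rounding), carbonic anhydrase 2, ld26647p (74.7 CPM), a tagged microtubule-associated protein tau (41.5 CPM, 41.55 before rounding), phosphatidylinositol transfer protein sec14 (28.8 CPM) and galactosylceramide sulfotransferase (26.3 CPM).

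Control 2 was highest for aspartyl beta-hydroxylase variant (863 CPM, with 5.59 to 19.2 CPM elsewhere), mitochondrial atp synthase b chain (212.5 CPM), dual oxidase maturation factor 1 gamma (117 CPM) and homeobox protein cut (57.2 CPM, with 50.5 to 52.1 CPM elsewhere).

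In control 3, tagged dopamine beta hydroxylase reached 1914 CPM (521 to 918 CPM elsewhere), peptidyl-prolyl cis-trans isomerase 451 CPM, collagen alpha-2 precursor 197 CPM (196.8), the mitochondrial manganese superoxide dismutase 82.5 CPM, collagen alpha-2(ix) chain 58.1 CPM, gliomedin 53.4 CPM (53.45), variable charge x-linked protein 3b 22.6 CPM and tagged skeletor 17.5 CPM.

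Control 4 was lowest for the innate immune recognition list (4149 CPM, with 5360 to 5638 CPM elsewhere). Control 5 was highest for cysteine n-palmitoyltransferase porcupine (3827 CPM), endoglucanase e-4 precursor (3949 CPM, with 1364 to 2016 CPM elsewhere) and gram-negative bacteria-binding protein (2437 CPM, with 1262 to 1441 CPM elsewhere).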

How the results depend on the processing

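No paired analysis was possible because a single group has no pairs across groups, and no test between groups was run. The level of each of the 153 named transcripts was recomputed under 8 settings. TMM scaling and DESeq2 size factors moved none of them by more than 1.5 times (at most 1.05 times). Leaving out control 4 and 5 together moved 24 by more than that, and leaving out control 1, 2 or 3 moved 11, 3 and 8, among them aspartyl beta-hydroxylase variant, at 10.6 CPM without control 2 in place of 181 CPM, and tagged skeletor, at 0 without control 3 in place of 3.50 CPM. Leaving out control 4 or control 5 alone moved none that far. Without the most abundant name in the total, the share of counts of the 10 highest names was 17.7% in place of 25.2%, and of the 100 highest 37.8% in place of 43.8%. The number of names with a CV above 50% was 990 with no filter, 240 at 10 CPM or more and 337 without control 4 and 5, in place of 513, and 446 to 556 with 1 library left out. At 10 CPM or more, the median CV was 15.9% and the common biological coefficient of variation 27.3%. Without control 4 and 5 they were 13.75% and 24.0%, in place of 17.55% and 30.55%, and with 1 library left out they were 16.45% to 18.2% and 29.2% to 32.5%. The causes were not tested. Depth limits names under about 0.252 CPM, the level of 3 counts in the shallowest library.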

Other observations

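Further groups of names were drawn up after the values had been seen. Of these, the ABC transporters had a median CV of 13.9%, the clock names 18.5%, the mismatch repair and meiosis names 21.7% and the neuropeptide names 20.7%, against 17.55% over all names. The 8 circadian clock names summed to 694, 640, 605, 794 and 692 CPM. Period circadian protein, a repressor of the insect clock, had 167 (166.5), 150 (149.7), 139, 262 and 214.5 CPM, highest in control 4. Cryptochrome-1, a light-sensing or repressor protein of the clock, stayed between 61.9 and 77.0 CPM, and timeless between 74.4 and 102 CPM.

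The 14 ABC transporter names, pumps that move lipids and foreign compounds across membranes, summed to 2547 ± 128 CPM (SD, n = 5). Atp-binding cassette sub-family g member led at 412 to 540 CPM. The 17 names of mismatch repair and meiosis summed to 346, 391, 369, 484 and 499 CPM, highest in control 4 and 5. Meiotic recombination protein spo11, which cuts DNA at the start of recombination, had 2.88, 1.98, 4.60, 0.830 and 2.43 CPM. These levels are low but above the floor in every library. Neuropeptides and their receptors, 10 names, took 69.0 ± 10.4 CPM in all, with allatostatin type b preprohormone at 14.98, 9.55, 16.8, 6.66 and 7.71 CPM.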
